A study of Mus with 18 samples.

Results

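Transcript levels of 8 genes that build, bind or sense the hyaluronan coat of cells, or that encode syndecans, were followed in mouse lens epithelial cells (LECs), which remain on the capsule when fiber cells are taken out, as in cataract surgery. The genes were chosen by their Ensembl identifiers, 8 of the 55416 that were counted. They were Has1 (ENSMUSG00000003665), Has2 (ENSMUSG00000022367), Cd44 (ENSMUSG00000005087), Tnfaip6 (ENSMUSG00000053475), Ptx3 (ENSMUSG00000027832), Vcan (ENSMUSG00000021614), Sdc1 (ENSMUSG00000020592) and Sdc4 (ENSMUSG00000017009). All 8 have a count in every library, 0 included. Wild type (WT), Egr1KO and FosBcKO mice, given as strain C57BL/6, aged 3 to 5 months and of both sexes, were each examined at 0 h and at 6 h post cataract surgery (PCS), which gives 6 groups of 3 libraries. Egr1KO mice carry a germline, systemic knockout in which a neomycin cassette interrupts Egr1, so every tissue of these mice lacks the intact gene. FosBcKO mice carry floxed Fosb alleles deleted by MLR10-cre, a Cryaa promoter transgene that drives cre in the lens. Each library pooled 5 lens capsules with their attached cells, and the surgery on both eyes was staggered by 6 h before a joint harvest, so that injured and uninjured capsules came from the same animals. The labels do not say whether pools of the same number at both times held the same animals, and the p-values below measure the spread between pools.

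Hyaluronan is a long unbranched sugar polymer that Has enzymes extrude directly through the plasma membrane. Outside the cell it is held by CD44, it is organised by large proteoglycans such as versican (Vcan), and it is cross-linked where TSG-6 (Tnfaip6) transfers heavy chains of the Itih proteins onto it and the pentraxin PTX3 ties those chains together. Syndecans are membrane proteoglycans whose heparan sulfate chains bind growth factors, chemokines and matrix. Such a matrix is best known from the expanding cumulus of the oocyte and from inflamed or wounded tissue, and in the eye hyaluronan and versican are components of the vitreous and of the zonular fibers that suspend the lens.

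The libraries held 9609295 to 13871592 counted read pairs each. The lens epithelial transcription factor genes Pax6, Foxe3 and Prox1 summed to between 1620 and 1900 CPM (counts divided by the total gene count of the library and multiplied by 1000000) in the 0 h libraries and to between 511 and 1480 CPM at 6 h. Egr1 itself read 165, 66.3 and 142 CPM in WT replicates 1 to 3 at 0 h and 285, 107 and 171 CPM in Egr1KO, and at 6 h 2046, 1627 and 1438 CPM in WT and 4463, 2083 and 3472 CPM in Egr1KO. Fosb read 26.3, 7.38 and 7.20 CPM in WT at 0 h and 4.55, 8.29 and 18.1 CPM in FosBcKO, and at 6 h 1539, 918 and 767 CPM in WT and 1745, 1430 and 1778 CPM in FosBcKO. Egr1 was not lower in Egr1KO at either time, Fosb was not lower in FosBcKO at 6 h, and at 0 h the Fosb libraries of FosBcKO and WT overlapped. A count over the whole gene includes transcript outside the inserted or deleted stretch, so these counts do not check the labels. Genotypes are given below as labelled. The Egr1KO replicate 1 library at 6 h stood apart from the other injured libraries, at -4.70 on the first principal component where the 0 h libraries lay from -90.32 to -39.4 and the other 6 h libraries from 23.56 to 115.56. The FosBcKO replicate 3 library at 6 h was the next lowest of the injured libraries, at 23.56.

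**Figure D1:**
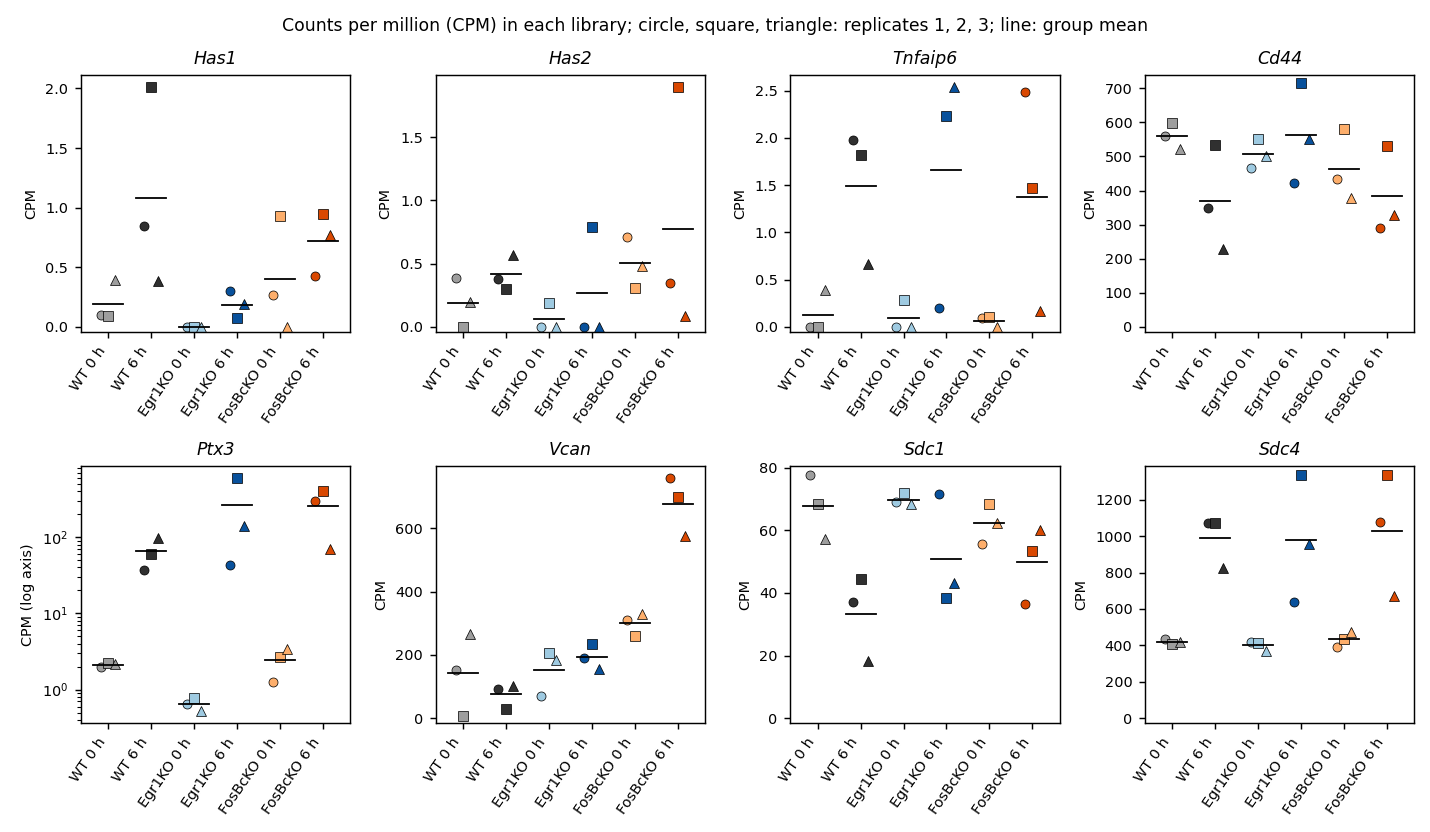
CPM of the 8 genes in each of the 18 libraries, with replicates 1, 2 and 3 as circle, square and triangle and the group mean as a line. The Ptx3 axis is logarithmic and the others are linear from 0. Ptx3 and Sdc4 separated all 6 h libraries from all 0 h libraries, Vcan was highest in the 3 FosBcKO libraries at 6 h, and Has1, Has2 and Tnfaip6 stayed below 3 CPM.

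The hyaluronan synthase transcripts were near the limit of detection. Has1, 1 of the plasma membrane synthases, summed to 82 read pairs over all 18 libraries and Has2, the synthase on which most embryonic and wound hyaluronan depends, to 75. The counts of Has1 were 1, 1 and 4 in WT replicates 1 to 3 at 0 h and 9, 20 and 4 at 6 h. They were 0, 0 and 0 in Egr1KO at 0 h and 3, 1 and 2 at 6 h, and 3, 9 and 0 in FosBcKO at 0 h and 5, 11 and 9 at 6 h. Every 6 h library thus held at least 1 Has1 read pair, whereas 4 of the 9 libraries at 0 h held none. Over both times the 6 Egr1KO libraries held 6 Has1 read pairs, against 39 in the 6 WT and 37 in the 6 FosBcKO libraries. A count of 0 in Egr1KO at 0 h allows up to 0.282 CPM per library at a floor of 3 counts, which lies above the WT mean of 0.191 CPM, so no difference was detectable there at this depth. At 6 h Has1 read 0.297, 0.0721 and 0.188 CPM in Egr1KO and 0.848, 2.02 and 0.381 CPM in WT. These values rest on counts of 3, 1 and 2 against 9, 20 and 4, and the difference did not pass the test given below.

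Has2 counts were 4, 0 and 2 in WT at 0 h and 4, 3 and 6 at 6 h. They were 0, 2 and 0 in Egr1KO at 0 h and 0, 11 and 0 at 6 h, and 8, 3 and 5 in FosBcKO at 0 h and 4, 22 and 1 at 6 h. The highest values at 6 h were each a single library of a knockout group, replicate 2 in both, and every pair of groups next to each other in the order of means overlapped. Neither synthase passed the filter on low counts (edgeR filterByExpr) in any comparison. Because that left them without a test, time was tested within genotype on CPM by an exact two-sided permutation test over samples with 8000 arrangements, a choice made after the counts were seen. Mean Has1 rose from 0.197 to 0.662 CPM over the 9 libraries of each time (exact permutation p = 0.016), and mean Has2 was 0.253 CPM at 0 h and 0.486 CPM at 6 h (exact permutation p = 0.312), where the smallest p such a test allows is 0.00025. Without the filter, Has1 in WT had a log2 fold change of 2.36 at 6 h with a false discovery rate (FDR) of 0.201 (edgeR quasi-likelihood F-test). By the same test it was 4.16 (FDR 0.294) in Egr1KO and 0.86 (FDR 0.66) in FosBcKO, so the rise of Has1 passed in no single genotype. For Has1 in Egr1KO against WT at 6 h the log2 difference was -2.32 with an FDR of 0.93 (edgeR exact test).

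Tnfaip6, which encodes the TSG-6 transferase, was nearly silent at 0 h and appeared at 6 h in every genotype. Its counts at 0 h were 0, 0 and 4 in WT, 0, 3 and 0 in Egr1KO and 1, 1 and 0 in FosBcKO. At 6 h they were 21, 18 and 7 in WT, 2, 31 and 27 in Egr1KO and 29, 17 and 2 in FosBcKO. In total 9 read pairs at 0 h stood against 154 at 6 h, and the libraries with the fewest at 6 h were Egr1KO replicate 1 and FosBcKO replicate 3, the same libraries that lay nearest the 0 h libraries on the first principal component. Mean Tnfaip6 rose from 0.0967 to 1.51 CPM (same exact permutation test, p = 0.001), 1 of the 3 genes so tested. The filter removed it from the comparisons of 6 h with 0 h. In a fit without the filter its log2 fold change was 3.35 in WT (FDR 0.0366), 3.999 in Egr1KO (FDR 0.0288) and 4.17 in FosBcKO (FDR 0.0264), all by the edgeR quasi-likelihood F-test.

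Ptx3, encoding the pentraxin that TSG-6-modified hyaluronan binds, had the largest fold changes with time among the members tested. At 0 h it read 2.01, 2.22 and 2.14 CPM in WT, 0.653, 0.768 and 0.520 CPM in Egr1KO and 1.25, 2.70 and 3.39 CPM in FosBcKO. At 6 h it read 36.9, 60.4 and 97.4 CPM in WT, 43.5, 605 and 141 CPM in Egr1KO and 297, 400 and 69.3 CPM in FosBcKO. The lowest 6 h library lay above the highest 0 h library by an order of magnitude, and the injured groups overlapped one another. The log2 fold change at 6 h was 4.80 (SE 0.36, FDR 0.000687) in WT, 8.64 (SE 1.13, FDR 0.0043) in Egr1KO and 6.73 (SE 0.91, FDR 0.00928) in FosBcKO by the quasi-likelihood F-test. The Egr1KO value rests on counts of 8, 8 and 5 at 0 h, few read pairs for a baseline, so its size is uncertain. Spread among the injured libraries was wide in the knockouts, with means of 263 ± 300.3 CPM in Egr1KO and 255 ± 169 CPM in FosBcKO (SD, n = 3) against 64.9 ± 30.5 CPM in WT (SD, n = 3). Without the replicate 2 library at 6 h the log2 fold change was 7.23 in Egr1KO and 6.11 in FosBcKO. In FosBcKO the FDR was 0.0598 without the replicate 1 library at 6 h and 0.0592 with a replicate block.

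Versican, the large chondroitin sulfate proteoglycan that binds hyaluronan through its N-terminal domain, was highest in FosBcKO and lowest in WT after injury. Vcan read 152, 7.73 and 265 CPM in WT at 0 h and 93.0, 30.3 and 102.3 CPM at 6 h. It read 71.2, 206 and 184 CPM in Egr1KO at 0 h and 192, 234 and 157 CPM at 6 h, and 310, 259 and 329 CPM in FosBcKO at 0 h and 760, 699 and 574 CPM at 6 h. WT replicate 2 was the lowest library at both times, and all FosBcKO libraries at 6 h lay above all other libraries, with those of FosBcKO at 0 h overlapping WT at 0 h. From 0 h to 6 h the log2 fold change was 1.18 (SE 0.18, FDR 0.00392) in FosBcKO, 0.39 (SE 0.36, FDR 0.454) in Egr1KO and -1.02 (SE 1.04, FDR 0.504) in WT by the quasi-likelihood F-test. The FosBcKO rise was 0.99 without replicate 2 at 0 h, under the 2-fold minimum, and its FDR was 0.305 when all 18 libraries shared 1 fit. In WT the value turned on single libraries, at -1.59 with an FDR of 0.05, which passed the threshold, without replicate 2 at 0 h, at -0.22 (FDR 0.903) without replicate 3 at 0 h, and at -0.30 (FDR 0.816) with a replicate block.

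Cd44, the main hyaluronan receptor of epithelial and inflammatory cells, was abundant throughout and did not pass the test in any comparison. It read 561, 597 and 521 CPM in WT at 0 h and 349, 533 and 229 CPM at 6 h. It read 466, 551 and 500 CPM in Egr1KO at 0 h and 421, 716 and 550 CPM at 6 h, and 433, 581 and 380 CPM in FosBcKO at 0 h and 289, 531 and 328 CPM at 6 h. Groups next to each other in the order of means overlapped in every case, and replicate 2 was the highest library of each of the 6 groups. The WT difference of -0.68 (SE 0.33, FDR 0.152) was -1.09 with an FDR of 0.0248 (quasi-likelihood F-test) when WT replicate 2 at 6 h was left out, so this call rests on that library.

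The syndecans went in opposite directions in WT. Sdc4, the syndecan that joins integrins in focal adhesions, read 434, 407 and 417 CPM in WT at 0 h, 417, 414 and 371 CPM in Egr1KO and 388, 433 and 475 CPM in FosBcKO. At 6 h it read 1073, 1073 and 827 CPM in WT, 639, 1338 and 956 CPM in Egr1KO and 1075, 1336 and 671 CPM in FosBcKO. All 6 h libraries lay above all 0 h libraries, and the lowest of them were again Egr1KO replicate 1 and FosBcKO replicate 3. The log2 fold change was 1.14 (SE 0.22, FDR 0.00797) in WT, 1.33 (SE 0.22, FDR 0.00786) in Egr1KO and 1.26 (SE 0.26, FDR 0.011) in FosBcKO by the quasi-likelihood F-test. The FDR reached 0.0536 in Egr1KO without replicate 3 at 0 h and 0.0635 in FosBcKO without replicate 1 at 6 h, and the FosBcKO rise was 0.91 on the log2 scale without replicate 2 at 6 h, under the 2-fold minimum.

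Sdc1, the syndecan typical of epithelia, read 77.6, 68.3 and 57.1 CPM in WT at 0 h and 37.2, 44.4 and 18.1 CPM at 6 h. It read 69.2, 72.0 and 68.3 CPM in Egr1KO at 0 h and 71.5, 38.3 and 43.2 CPM at 6 h, and 55.8, 68.5 and 62.5 CPM in FosBcKO at 0 h and 36.6, 53.3 and 60 CPM at 6 h. The times did not overlap in WT and overlapped in both knockouts. Sdc1 fell by 1.11 on the log2 scale in WT (SE 0.34, FDR 0.0461, quasi-likelihood F-test), and the differences of -0.38 in Egr1KO (SE 0.25, FDR 0.298) and -0.31 in FosBcKO (SE 0.21, FDR 0.305) did not pass. The WT call was close to the threshold and was lost in 5 of the 6 fits that left out 1 library, in 4 with FDR values from 0.0665 to 0.124 and without replicate 3 at 6 h because the change of -0.78 was under 2-fold. It was also lost without the filter on low counts (FDR 0.0755). Within groups, log2 Sdc1 followed the summed stromal fibroblast markers with a Pearson r of 0.93 and the lens epithelial markers with an r of 0.77, over 18 libraries. It ran against the endothelial markers with an r of -0.82. These are descriptions of points that share a library and its depth. The stromal sum was mostly Col6a3 and Pdgfra, at 647 and 175 CPM in WT at 0 h, where Col1a1 and Dcn were at 5.93 and 3.37 CPM. Which cells held these transcripts was not tested.

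**Figure D2:**
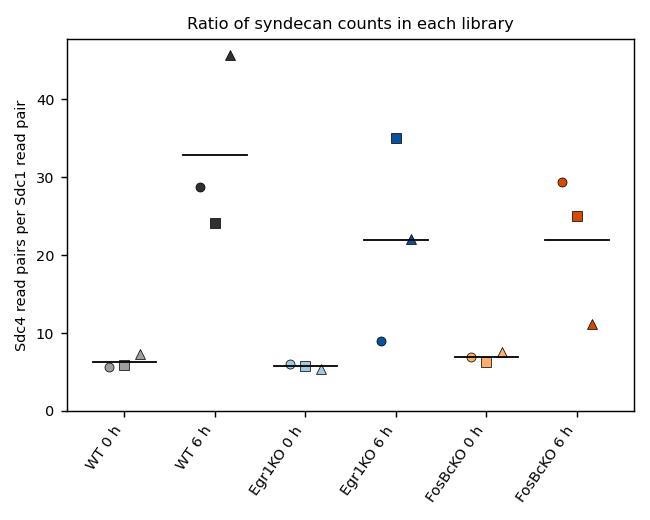
Read pairs of Sdc4 per read pair of Sdc1 in each library on a linear axis from 0, with replicates 1, 2 and 3 as circle, square and triangle and the group mean as a line. The 0 h libraries lay between 5.43 and 7.60 and all 6 h libraries above them, with Egr1KO replicate 1 (8.94) and FosBcKO replicate 3 (11.2) the closest. The ratio was chosen after the levels of both genes were seen.

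The balance between both syndecans can be read within a library, where scaling cancels. This ratio was chosen after the levels of both genes were seen, and Sdc4 alone already separated the times. Its separation of the times therefore follows from that choice and is given as a description. At 0 h there were between 5.43 and 7.60 Sdc4 read pairs for each Sdc1 read pair in the 9 libraries. At 6 h the ratio was 28.8, 24.2 and 45.7 in WT, 8.94, 35.0 and 22.1 in Egr1KO and 29.4, 25.1 and 11.2 in FosBcKO. Every injured library had a higher ratio than every 0 h library, and the lowest WT value at 6 h lay within the range of each knockout. The ratio also holds the difference in transcript length and so is no measure of relative molecule numbers.

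To find which members responded to injury, the 6 h libraries were compared with the 0 h libraries of the same genotype, with a call at an FDR of at most 0.05 and a change above 2-fold. Of the 8 genes, 5 passed the filter in each genotype. In WT Ptx3 and Sdc4 rose and Sdc1 fell, so 2 of the 5 tested were called higher where 13.5% of the 15440 genes tested were, and 1 was called lower where 3.65% were. In Egr1KO 2 of 5 were higher (Ptx3 and Sdc4) and none lower, beside 9.28% and 2.69% of 14586 genes. In FosBcKO 3 of 5 were higher (Ptx3, Sdc4 and Vcan) and none lower, beside 11.2% and 1.9% of 15475 genes. The called members were also those whose libraries did not overlap between times, in which 28.2% of genes lay higher and 19.8% lower in WT, 18.1% higher in Egr1KO and 22.8% higher in FosBcKO. The median log2 fold change of the tested members was -0.68 for WT, 0.39 for Egr1KO and 1.18 for FosBcKO, beside medians over all genes of -0.02, 0.00 and 0.05. When single libraries were left out, WT had between 2 and 4 called members, Egr1KO between 1 and 3 and FosBcKO between 1 and 4.

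**Figure D3:**
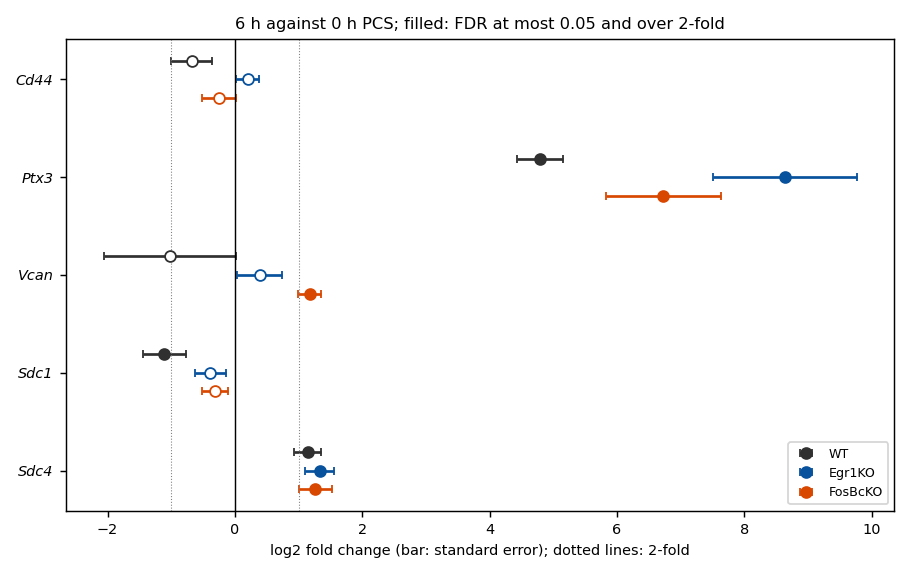
Log2 fold change at 6 h against 0 h PCS (horizontal axis, bar: standard error) of the 5 genes that passed the filter, for WT, Egr1KO and FosBcKO, with filled points for calls at an FDR of at most 0.05 and over 2-fold. Ptx3 lay at 4.80, 8.64 and 6.73 and Sdc4 at 1.14, 1.33 and 1.26, while Vcan was called in FosBcKO and Sdc1 in WT.

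Markers of other tissues moved with time as well. The summed endothelial markers Pecam1, Cdh5, Kdr and Tek went from between 3.11 and 7.49 CPM in WT at 0 h to between 48.9 and 121 CPM at 6 h, from between 4.06 and 5.47 to between 10.8 and 30.2 CPM in Egr1KO, and from between 9.43 and 15.4 to between 31.2 and 97.9 CPM in FosBcKO. Markers of iris and ciliary pigment cells (Tyr, Tyrp1, Dct, Pmel and Mlana, 4 of 5 with an identifier) went from between 14 and 94.4 to between 35.5 and 173 CPM in WT, from between 15.2 and 50.2 to between 94.9 and 311 CPM in Egr1KO, and from between 29.0 and 72.1 to between 164 and 355 CPM in FosBcKO. The leukocyte markers (6 of 8 with an identifier) spanned 1.78 to 32.8 CPM in WT at 0 h and 17.3 to 28.0 CPM at 6 h, and went without overlap from between 20.2 and 25.1 to between 31.9 and 99.2 CPM in Egr1KO and from between 29.8 and 35.9 to between 70.9 and 74.0 CPM in FosBcKO, the genotype in which Vcan rose. Ptprc and Cd74 were called higher at 6 h in both knockouts, and Cd68 in WT. Markers of corneal and surface epithelium (2 of 4 with an identifier) ranged from 0.518 to 299 CPM over the 18 libraries. None of these markers was at 0 in all libraries of a group. Their part in the rises of Ptx3, Sdc4, Tnfaip6 and Vcan was not tested, and in such bulk samples a change in the number of cells of a type and a change in RNA per cell cannot be told apart. Within groups, log2 Ptx3 ran against the summed lens epithelial markers with a Pearson r of -0.89 over 18 libraries. The r was -0.65 with the stromal fibroblast and -0.59 with the corneal markers. It was 0.48 with the endothelial, 0.14 with the pigment cell and -0.24 with the leukocyte markers. The Egr1KO replicate 2 library at 6 h held the most Ptx3 and the lowest sum of the lens epithelial markers, 605 and 511 CPM.

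Other genes of the same pathways were taken from lists of hyaluronan supply, receptors, breakdown and binding proteins, versican-cleaving proteases, glypicans, heparan sulfate enzymes and sheddases. Of 74 listed genes beside the members, 34 could be matched to an identifier through names given in the study's own gene lists. Those names lean towards genes the study found changed, so the counts are no measure of the pathway as a whole. In WT 5 of 34 tested rose and none fell, beside 13.5% of all genes higher and 3.65% lower. Adamts1 and Adamts4, proteases that cleave versican, rose from 132 ± 31.0 to 780 ± 139 CPM and from 129 ± 18.3 to 419 ± 65.4 CPM (SD, n = 3), log2 fold changes of 2.47 (SE 0.26, FDR 0.00136) and 1.60 (SE 0.22, FDR 0.00242) by the quasi-likelihood F-test. Hs3st1, a sulfotransferase, and Sulf2, a sulfatase that trims heparan sulfate, rose by 2.50 (FDR 0.00369) and 2.39 (FDR 0.0064) on the log2 scale. Itih4, of the inter-alpha-trypsin inhibitor heavy chain family, rose from 0.0957 ± 0.166 to 2.25 ± 1.19 CPM (SD, n = 3, FDR 0.0223). No WT library at 0 h exceeded 0.287 CPM, so Itih4 passed the filter only through the 6 h libraries. In both knockouts the filter removed it over time, and its rise in WT is given as a description.

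In Egr1KO 7 of 32 other pathway genes rose from 0 h to 6 h (Adamts1, Adamts4, Hs3st1, Gfpt2, Layn, Mmp14 and Gpc1) and B3galt6, a linker-region enzyme of glycosaminoglycan chains, fell by 1.17 on the log2 scale (FDR 0.0272, quasi-likelihood F-test). In FosBcKO 6 of 32 rose (Adamts1, Adamts4, Adamts9, Gfpt2, Sulf2 and Mmp14) and none fell. Over all genes 9.28% were higher and 2.69% lower in Egr1KO, and 11.2% and 1.9% in FosBcKO. Adamts1 and Adamts4 were called higher in all 3 genotypes, with Adamts1 at 3.50 (SE 0.46) in Egr1KO and 2.58 (SE 0.37) in FosBcKO on the log2 scale. Gfpt2, an amidotransferase that feeds UDP-N-acetylglucosamine, a substrate of the Has enzymes, rose by 2.09 (FDR 0.00477) in Egr1KO and 2.68 (FDR 0.00911) in FosBcKO and was at 1.40 (FDR 0.224) in WT. The median log2 fold change of the tested pathway genes was 0.21 for WT, 0.44 for Egr1KO and 0.37 for FosBcKO, beside -0.02, 0.00 and 0.05 over all genes.

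Whether the lack of either transcription factor changed the members in uninjured LECs was examined at 0 h with the edgeR exact test. None of the 5 members tested was called in Egr1KO against WT, beside 0.41% of 14373 genes, and none in FosBcKO against WT, beside 0.295% of 14556 genes. At an unadjusted p under 0.05 these comparisons held 920 and 818 genes. Ptx3 was lower in all 3 Egr1KO libraries than in any WT library, 0.647 ± 0.124 against 2.13 ± 0.107 CPM (SD, n = 3), and 9.32% of genes were separated in this direction. These values rest on counts of only 8, 8 and 5 in Egr1KO against 21, 25 and 22 in WT. The log2 difference of -1.68 (SE 0.64) had an unadjusted p of 0.00645 and an FDR of 0.318 by the edgeR exact test over 6 libraries, so it did not pass. Vcan differed by 0.16 (SE 1.24) in Egr1KO and 1.10 (SE 1.18) in FosBcKO, with an FDR of 1 in both, and its spread among WT libraries, from 7.73 to 265 CPM, exceeded both differences. Cd44, Sdc1 and Sdc4 differed by between -0.28 and 0.07 on the log2 scale with standard errors from 0.08 to 0.14. None of the 32 other pathway genes tested was called at 0 h in either knockout.

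At 6 h PCS, Vcan was higher in both knockouts than in WT and Ptx3 in FosBcKO. In Egr1KO 1 of the 6 members tested was called higher and none lower. This was Vcan, at 194 ± 38.9 against 75.2 ± 39.1 CPM in WT (SD, n = 3), a log2 difference of 1.60 (SE 0.40, FDR 0.0273, edgeR exact test), where 0.461% of 15618 genes were called higher. In FosBcKO 2 of 6 were called higher and none lower, where 4.48% of 16155 genes were called higher. Vcan stood at 678 ± 94.6 CPM (SD, n = 3), a log2 difference of 3.32 (SE 0.42, FDR 1.2e-11), and Ptx3 at 255 ± 169 CPM (SD, n = 3), a log2 difference of 2.15 (SE 0.60, FDR 0.00964, edgeR exact test). The Vcan libraries of each knockout did not overlap those of WT, which held for 3.17% of genes in Egr1KO and 9.99% in FosBcKO in the higher direction. Ptx3 overlapped, since FosBcKO replicate 3 at 69.3 CPM lay below WT replicate 3 at 97.4 CPM. Both comparisons use the same 3 WT libraries, and their shares of all genes called lower are not given here.

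Of these 3 calls only that of Vcan in FosBcKO held in each fit that left out 1 library, with log2 differences from 2.95 to 3.54. Tested instead by quasi-likelihood, these libraries gave an FDR of 0.00514 for Vcan and 0.119 for Ptx3 in FosBcKO and of 0.536 for Vcan in Egr1KO. In 1 fit of all 18 libraries the FDR of Vcan was 0.0566 in FosBcKO, and with a replicate block it was 0.051. Ptx3 in Egr1KO, at 2.19 (SE 0.80, FDR 0.21), passed without the Egr1KO replicate 1 library, at 2.70 (FDR 0.000676), and was at 0.80 without replicate 2, so the value turned on single libraries. Cd44 differed by 0.78 (SE 0.37, FDR 0.49) in Egr1KO and 0.18 (SE 0.41, FDR 0.928) in FosBcKO. Sdc1 differed by 0.82 (SE 0.40, FDR 0.55) and 0.70 (SE 0.38, FDR 0.397), Sdc4 by 0.17 (SE 0.32, FDR 0.945) and 0.18 (SE 0.34, FDR 0.902) and Tnfaip6 by 0.34 (SE 0.88, FDR 0.969) and -0.03 (SE 0.86, FDR 1), so for Tnfaip6 differences of several fold in either direction lie within 2 standard errors.

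**Figure D4:**
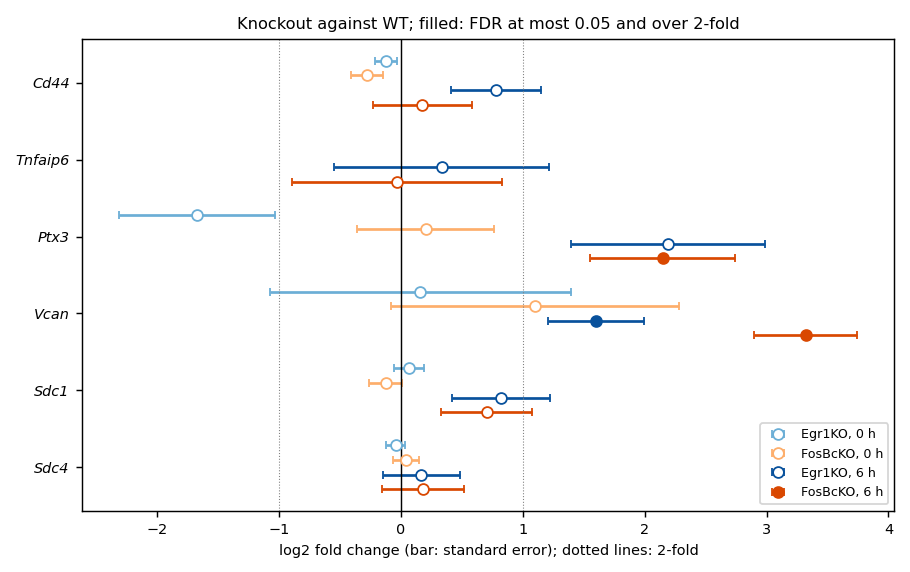
Log2 fold change of each knockout against WT (horizontal axis, bar: standard error) at 0 h and at 6 h for the members that passed the filter, with filled points for calls at an FDR of at most 0.05 and over 2-fold. The calls are Vcan at 6 h in Egr1KO (1.60) and FosBcKO (3.32) and Ptx3 at 6 h in FosBcKO (2.15), and no member was called at 0 h.

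Vcan moved from library to library together with a group of other genes, several of them matrix genes. Over all 18 libraries and 17463 genes compared, the genes most like Vcan by Pearson r of log2 CPM included Fbln1 (0.996), Ltbp2 (0.994), Col18a1 (0.993), Reln (0.992), Fbn1 (0.992), Fbn2 (0.99), Optc (0.989), F5 (0.988) and Slc13a4 (0.987), a list drawn up after the Vcan values were seen. As background, fibrillins (Fbn1 and Fbn2) and LTBP-2 are microfibril proteins of the zonule, fibulin-1 (Fbln1) is a matrix protein, and opticin (Optc) is a small leucine-rich proteoglycan that the nonpigmented ciliary epithelium secretes into the vitreous. Optc read 206, 7.64 and 327 CPM in WT at 0 h, 65.3, 25.5 and 116 CPM in WT at 6 h, 204, 327 and 189 CPM in Egr1KO at 6 h and 886, 819 and 600 CPM in FosBcKO at 6 h. WT replicate 2 was lowest at both times and FosBcKO at 6 h highest, as for Vcan. There were between 0.408 and 0.584 Vcan read pairs for each Fbln1 read pair in every library, although Vcan itself ranged from 7.73 to 760 CPM.

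**Figure D5:**
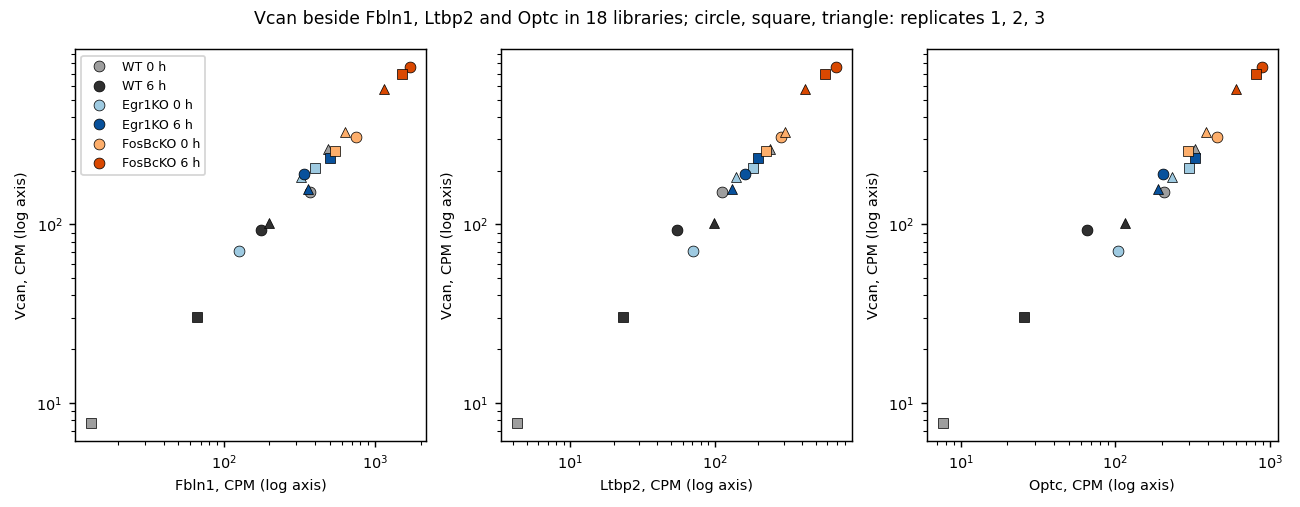
CPM of Vcan (vertical) against Fbln1, Ltbp2 and Optc (horizontal), all on log axes, in the 18 libraries coloured by group, with replicates 1, 2 and 3 as circle, square and triangle. The libraries lie along 1 line in each panel (Pearson r of 0.996, 0.994 and 0.989), from WT replicate 2 at 0 h at the lower end to the FosBcKO libraries at 6 h at the upper end.

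These 9 genes were picked for their likeness to Vcan in the same libraries, so their calls follow from that choice and are given as a description. All 9 were higher in FosBcKO at 6 h than in WT, with log2 differences from 2.94 to 3.84, and all 9 rose from 0 h to 6 h in FosBcKO, by 1.02 to 1.27. In Egr1KO against WT at 6 h 8 of 9 were higher, and Reln was at 1.29 (FDR 0.146, edgeR exact test). Markers of other cells differed in the same comparison. The leukocyte markers summed to between 70.9 and 74.0 CPM in FosBcKO and between 31.9 and 99.2 CPM in Egr1KO at 6 h, against 17.3 to 28.0 CPM in WT, with Ptprc, Itgam, Lyz2, Adgre1 and Cd74 called higher in FosBcKO, 5 of the 6 listed genes with an identifier. The remaining gene, Cd68, went the other way without a call, at -0.51 in FosBcKO and -0.49 in Egr1KO. In Egr1KO only Cd74 was called. Cd74, at a mean of 45.85 CPM in FosBcKO at 6 h, made up most of the leukocyte sum there. Within groups log2 Vcan followed the leukocyte sum with a Pearson r of 0.84 over 18 libraries, and in WT replicate 2 at 0 h, the library with least Vcan, the sum was 1.78 CPM. Col1a2, a fibrillar collagen gene of stromal cells, stood at 124 ± 13.6 CPM in FosBcKO and 34.8 ± 10.2 CPM in Egr1KO against 12.4 ± 4.75 CPM in WT at 6 h (SD, n = 3), log2 differences of 3.46 (FDR 7.73e-24) and 1.70 (FDR 0.00214) by the edgeR exact test. It was 1 of the 5 stromal genes and the only one of them called in FosBcKO. In Egr1KO Col6a3 was called lower, at -2.63 (FDR 0.00391, edgeR exact test), Col1a1, Dcn and Pdgfra were not called in either knockout, and the stromal sum overlapped between WT and each knockout. The part of adjoining ciliary or other tissue in the Vcan result was not tested.

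Among the other pathway genes, 6 of 34 were higher in FosBcKO than in WT at 6 h, beside 4.48% of all genes. The 1 gene called lower, Itih4, is given below without a share of all genes beside it. In Egr1KO none of 34 was called, where 0.461% of all genes were called higher. Gfpt2 stood at 50.1 ± 21.7 against 9.91 ± 6.10 CPM (SD, n = 3), a log2 difference of 2.50 (FDR 2.58e-05), and Adamts9, another versican-cleaving protease, differed by 2.49 (FDR 9.37e-05). The glypican genes Gpc3 and Gpc6 differed by 2.34 (FDR 4.24e-08) and 1.48 (FDR 8.9e-05), Mmp14, a membrane protease that sheds CD44 and syndecan-1, by 1.90 (FDR 1.16e-09) and Adamts5 by 1.10 (FDR 0.000207), all by the edgeR exact test. Itih4 was lower by this test, at 0.401 ± 0.276 against 2.25 ± 1.19 CPM (SD, n = 3), a log2 difference of -2.38 (FDR 0.0342). It passed the filter here only through the WT libraries, as no FosBcKO library at 6 h exceeded 0.601 CPM, so this call is given as a description. Adamts1 and Adamts4, which rose with injury in each genotype, were not among the genes called between genotypes.

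The difference between the injury response of a knockout and that of WT was estimated as the interaction of genotype and time in 1 fit of 18 libraries. None of the 6 members tested was called for Egr1KO or FosBcKO, and none of all 17469 genes, with 1141 and 1171 genes at an unadjusted p under 0.05 (edgeR quasi-likelihood F-test). Ptx3 had a difference of responses of 3.83 (SE 1.42, unadjusted p = 0.0175, FDR 0.719, edgeR) on the log2 scale in Egr1KO and 1.88 (SE 1.25, FDR 0.807) in FosBcKO, and Vcan of 1.39 (SE 1.08, FDR 0.844) and 2.14 (SE 1.09, FDR 0.754). The Ptx3 value in Egr1KO again rests on low counts at 0 h. Sdc4 responses differed from that of WT by 0.17 (SE 0.35, FDR 0.942) and 0.06 (SE 0.35, FDR 0.988). Sdc1 and Vcan were called over time in 1 genotype each, and these interaction tests do not show that their responses differed. With both WT replicate 2 libraries left out, a choice made after their low Vcan was seen, the Vcan difference was 2.33 (FDR 0.108) in FosBcKO and 1.58 (FDR 0.558) in Egr1KO.

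Among the members themselves, Ptx3 and Sdc4 varied most alike, with a Pearson r of log2 CPM of 0.946 over 18 libraries and 0.769 within groups. Tnfaip6 followed Sdc4 (0.896, and 0.684 within groups) and Ptx3 (0.83, and 0.561 within groups). Cd44 and Sdc4 had an r of -0.07 over all libraries and 0.663 within groups. Of all genes compared, those most like Ptx3 included Csf3 (0.982), the gene of granulocyte colony-stimulating factor, and Csf1 (0.974), that of macrophage colony-stimulating factor. Csf1 (0.973), Fndc4 (0.971) and Jak1 (0.969) were most like Sdc4, and among named genes Bach2 (0.918), Perp (0.915) and Capn2 (0.911) were most like Cd44. These correlations are descriptions over libraries that share the difference between 0 h and 6 h.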

How the data were processed

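Lens capsule RNA of 18 libraries was sequenced by the authors as stranded, ribodepleted read pairs, aligned with HISAT2, and assigned to Ensembl genes by the union mode of HTSeq-count. The deposited files hold raw gene counts, without normalization. The mouse assembly is named differently in the study's methods and in the submitters' processing notes, and no coordinates are given. Summary lines that name no gene were left out (pairs outside genes were 8.03% to 30.5% per library), and genes that share sequence or overlap are counted uncertainly in this mode. Gene names beyond the 8 members came from identifier and name pairs in the study's gene lists (7016 pairs).

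Groups came from the sample labels. Tests used edgeR 4.0.16 in R 4.3.3 with filterByExpr, TMM scaling and robust dispersions on all genes of the 6 libraries compared. Time was tested by the quasi-likelihood F-test, genotype by the exact test as in the study's methods (standard errors from the quasi-likelihood fit), and the interaction by quasi-likelihood in all 18 libraries. The fits were tried on simulated counts for calling changed genes in the right direction, a check that set no limit on false calls. Calls needed an FDR (Benjamini-Hochberg) of at most 0.05 and over 2-fold. Correlations used log2 CPM, and some genes like a member are not reported here. Alternatives were the other edgeR test, DESeq2 1.42.0, RLE size factors, other filters, 1 fit of 18 libraries, no fold minimum, a replicate block and leaving out each library. All 8 members are described in every comparison, other listed genes where called, at most 4 a list beyond counts. The members and lists were chosen with earlier results of these data known. The floor of 3 counts covers counting error only, whereas the standard errors include the spread between libraries. Same-numbered WT libraries deviated together (r from 0.102 to 0.247 across genes, 3 of 3 pairs over 0.1), those of Egr1KO in 1 and of FosBcKO in 2 of 3 pairs.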

Additional observations from a re-analysis of the deposited data

How the results depend on the processing

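Every call at 6 h against 0 h kept its direction in the alternatives tried. For the genotype comparisons at 6 h the number of members called depended on the test. In Egr1KO against WT it was 1 by the exact test and 0 by the quasi-likelihood F-test and with all 18 libraries in 1 fit. In FosBcKO against WT it was 2 by the exact test, 1 by the quasi-likelihood F-test, by DESeq2 and without a filter, and 0 in 1 fit of 18 libraries. The interactions, with 0 members called, gave 2 for Egr1KO and 2 for FosBcKO (Ptx3 and Vcan in both) without a filter. The cause was not tested. The share of all genes called in these unfiltered interaction fits is not given here, so those counts are not read as a result about the members. Leaving out 1 library changed the members called over time to between 2 and 4 for WT, between 1 and 3 for Egr1KO and between 1 and 4 for FosBcKO, with 0 to 0 at 0 h in both knockouts, 0 to 2 in Egr1KO and 1 to 2 in FosBcKO at 6 h, and 0 to 0 in the interactions. Over time the lowest counts came without WT replicate 1 at 0 h or replicates 1 or 3 at 6 h, Egr1KO replicate 3 at 0 h and FosBcKO replicate 1 at 6 h, with 2 in FosBcKO also without replicate 2 at 0 h or at 6 h, and the highest without WT replicate 2, Egr1KO replicate 1 and FosBcKO replicate 3 at 6 h. Between genotypes at 6 h, Egr1KO had 0 without WT replicate 1 or Egr1KO replicate 3 and 2 without Egr1KO replicate 1, and FosBcKO had 1 without WT replicate 1 or 2 or FosBcKO replicate 2. The Sdc1 call in WT was lost without a filter.

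With a replicate block, 0 members were called at 6 h in Egr1KO against WT and 0 in FosBcKO against WT, where Vcan was at 3.45 (FDR 0.051, edgeR quasi-likelihood F-test), and Ptx3 from 0 h to 6 h in FosBcKO was at 6.45 (FDR 0.0592). These block fits used the quasi-likelihood F-test, which without a block already called no member in Egr1KO against WT at 6 h and only Vcan in FosBcKO. No other call of a member differed in the block fits. Between genotypes the libraries share only a number. Over time the labels do not say whether libraries of the same number share animals, in the knockouts as in WT.

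Values that changed sign were of differences that did not pass the test, on leaving out single libraries. In Egr1KO against WT the log2 difference ranged from -0.397 to 0.971 for Vcan and from -0.051 to 0.16 for Sdc1 at 0 h, and from -0.154 to 0.853 for Tnfaip6 and -0.053 to 0.383 for Sdc4 at 6 h. In FosBcKO against WT it ranged from -0.136 to 0.528 for Ptx3 and -0.049 to 0.124 for Sdc4 at 0 h, and from -0.651 to 0.488 for Tnfaip6, -0.227 to 0.57 for Cd44 and -0.136 to 0.416 for Sdc4 at 6 h. The differences of responses ranged from -2.918 to 3.883 for Tnfaip6 and -0.071 to 0.387 for Sdc4 in Egr1KO, and from -2.81 to 1.312 for Tnfaip6, -0.011 to 0.775 for Cd44 and -0.251 to 0.299 for Sdc4 in FosBcKO. Without both WT replicate 2 libraries, a setting chosen after seeing the data, no interaction was called for a member. Depth limits Has1, Has2 and Tnfaip6, whose highest counts in a library were 20, 22 and 31. It also limits the Ptx3 baseline of Egr1KO at 0 h, with counts of 8, 8 and 5.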
